A study of Mus musculus with 2 samples.

Results

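Arterial endothelial cells line the vessels that carry blood away from the heart, and in single-cell data from the lung they are told from capillary and venous cells by genes such as the connexins *Gja5* and *Gja4*. Arterial-like cells were taken here from 2 single-cell RNA sequencing libraries of mouse lung by a rule on measured UMIs (unique molecular identifiers, one per captured transcript). A cell had to hold at least 2 of the endothelial genes *Pecam1*, *Cdh5*, *Cldn5* and *Calcrl* and at least 2 of the arterial genes *Gja5*, *Gja4*, *Bmx* and *Dkk2*. It also had to hold 0 UMIs of *Car4*, *Slc6a2*, *Prox1*, *Ptprc*, *Col1a2* and *Epcam*, which mark aerocytes, veins, lymphatics, leukocytes, fibroblasts and epithelium. The rule found 305 cells among 45824 that passed the quality limits, 292 of them in the *Pclaf* WT library and 13 in the *Pclaf* KO library. These 14 genes chose the cells, so their values are given only as a description.

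The mice, aged 8 to 10 weeks, received bleomycin at 1.35 U/kg, and lung cells were taken 1 week later. Both genotypes carried the same injury and no untreated library was used here. One group was *Pclaf* WT and the other *Pclaf* KO, a knockout from an established line. The labels describe a sort for Cd31-/Cd45-/Epcam+ epithelial cells, so CD31+ endothelial cells were outside the stated gate. Even so, 8074 of the 30187 kept WT cells (26.7%) and 442 of the 15637 kept KO cells (2.83%) met an endothelial gate. It asked for at least 2 of the endothelial genes and 0 UMIs of *Ptprc*, *Col1a2* and *Epcam*. The number of animals behind each library is not given in the sources used here. With 1 library per genotype there was no replicate and no test: intervals are 95% intervals that cover counting error only, exact Poisson for summed UMIs and exact binomial for shares of cells. Between the libraries 163 barcodes were shared, 2 of them on WT arterial-like cells and 0 on KO arterial-like cells.

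Arterial identity is set up in development by VEGF and Notch signalling. The ligand *Dll4* on one endothelial cell activates Notch receptors on its neighbour, and *Hey1*, *Hey2* and *Nrarp* are transcribed in response. Arterial cells also carry the membrane ligand *Efnb2*, whose receptor *Ephb4* marks veins, and the walls of large arteries are rich in elastic fibres of elastin, fibrillin and fibulins. In the adult lung, capillaries hold general capillary cells and the *Car4*-positive aerocytes that face the air spaces.

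The 292 WT cells held 956921 UMIs, with a median of 2682.5 UMIs per cell (from 578 to 9950) and 1507.5 genes. The 13 KO cells held 38776 UMIs, with a median of 2691 per cell (1444 to 6287). Levels are given as CPM, counts per 1000000 UMIs summed over the cells of a class. A count of 0 in a class was read at a floor of 3 counts, which is 3.14 CPM in the WT cells and 77.4 CPM in the KO cells, so the KO cells bear on abundant genes only.

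The knocked-out gene *Pclaf*, which encodes a PCNA-binding protein of dividing cells, had 7 UMIs in the WT arterial-like cells (7.32 CPM, 2.94 to 15.1). It had 2 UMIs, both in 1 cell, in the KO arterial-like cells (51.6 CPM, 6.25 to 186). Over all cells of the endothelial gate it had 290 UMIs in WT (15.5 CPM) and 10 in KO (6.99 CPM), and in immune cells 1568 in WT (60.6 CPM) and 30 in KO (21.2 CPM). In epithelial cells it had 23 UMIs in WT (10.49 CPM) and 243 in KO (6.60 CPM). The level was thus smaller in KO in these 3 groups of cells but not in the arterial-like cells, and not at 0. Which part of the transcript the KO allele lacks is not given in the sources used here, and counts this low in the arterial-like cells do not check the label.

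Of the 4 arterial genes, *Gja4* was found in 250 of the 292 WT cells (85.6%) and *Gja5* in 230 (78.8%), the connexins 37 and 40 that couple arterial endothelium electrically. *Bmx*, a tyrosine kinase of arterial endothelium, was in 160 (54.8%), and *Dkk2*, a secreted Wnt pathway modulator, was in 18 (6.16%). In the 13 KO cells the numbers were 11, 9, 8 and 0. The label therefore rests on the 3 first genes. In GRCm38 coordinates *Gja5* (ENSMUSG00000057123) lies at chr3:96904693-97077416 on the plus strand and *Gja4* (ENSMUSG00000050234) at chr4:127311421-127314039 on the minus strand. *Bmx* (ENSMUSG00000031377) lies at chrX:164192842-164258193 on the minus strand and *Dkk2* (ENSMUSG00000028031) at chr3:132085292-132180304 on the plus strand. The pair *Gja5* and *Gja4* alone made up 125 WT cells, *Gja4* and *Bmx* 60, *Gja5*, *Gja4* and *Bmx* 54, and *Gja5* and *Bmx* 35. Of the rest, 7 WT cells held all 4 genes and 11 held another combination with *Dkk2*.

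Droplets also pick up free RNA, so the same 4 genes were read in WT cells that should lack them. *Gja5* was found in 0.461%, *Gja4* in 1.09%, *Bmx* in 3.03% and *Dkk2* in 0.369% of 6511 immune cells, which had a median of 2919 UMIs. Among 311 epithelial cells with a median of 6161 UMIs the shares were 0.322%, 0.965%, 1.61% and 0%. *Bmx* had the highest of the 4 shares in both cell types. The arterial-like cells were chosen for holding these genes, so their own shares are no check of the label.

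Arterial-like cells made up 3.62% of the endothelial cells in WT (3.22 to 4.05) and 2.94% in KO (1.58 to 4.98), so a difference in this share was not detectable at this depth. Finding 2 genes depends on depth. When each cell was thinned to 1000 UMIs, 109 of 6607 WT endothelial cells (1.65%, 1.36 to 1.99) and 5 of 365 KO endothelial cells (1.37%, 0.446 to 3.17) still met the rule. As a share of all kept cells the arterial-like cells were 0.967% in WT and 0.0831% in KO. The KO library held fewer endothelial cells of every class, and genotype, sort and library cannot be told apart.

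For comparison within the WT library, 3 other endothelial classes were taken by rules of the same kind, each with 0 UMIs of the 4 arterial genes. Capillary-like cells (2239 cells, median 1842 UMIs) held at least 2 of *Gpihbp1*, *Plvap*, *Kit* and *Aplnr*. Aerocyte-like cells (489 cells, median 2507 UMIs) held *Car4* and another of *Ednrb*, *Apln* and *Tbx2*, and venous-like cells (290 cells, median 3246.5 UMIs) at least 2 of *Slc6a2*, *Car8*, *Bst1* and *Vcam1*. The classes come from the same library, so the comparisons hold no genotype difference, but that is still 1 library. Genes with at least 50 UMIs over both classes were compared, and "higher" or "lower" below counts genes that differed at least 2-fold, or 1 log2 unit. A gene can reach this minimum through the class where it is high, so counts and medians over lists partly follow from it and only describe.

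Against capillary-like cells, 214 of 9106 genes (2.35%) were higher and 309 (3.39%) lower, with a median log2 ratio of -0.01. Against aerocyte-like cells 418 of 6620 genes (6.31%) were higher and 434 (6.56%) lower, and against venous-like cells 282 of 6162 (4.58%) and 270 (4.38%). The number of genes compared differs between classes, so these shares do not rank them.

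The list of 18 genes known from arterial endothelium, none of them in the rule, had 17 genes with enough UMIs. Against capillary-like cells 7 were higher and 0 lower, with a list median of 0.75. Against aerocyte-like cells 10 were higher and 2 lower (median 1.12), and against venous-like cells 13 were higher and 0 lower (median 1.54). The medians over all genes were -0.01, 0.02 and 0.03. Only *Efnb2*, *Cxcl12*, *Dll4*, *Hey1*, *Mecom* and *Edn1* among the 17 were higher against each of the 3 classes.

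*Efnb2*, the ligand that keeps arterial from venous cells apart, was at 1450 CPM in arterial-like cells (1375 to 1529), 565 in capillary-like, 354 in aerocyte-like and 70.1 in venous-like cells. It was detected in 267 of 292 WT arterial-like cells (91.4%), with up to 30 UMIs in a cell. The chemokine *Cxcl12* was at 1458 CPM against 361, 144 and 58.1, a log2 ratio over capillary-like cells of 2.01 (1.91 to 2.12). These 2 ligands thus ran in the same order through the 4 classes, with venous-like cells lowest. *Sema3g*, a semaphorin of arterial endothelium, followed that order too, at 595, 346, 81.5 and 16.6 CPM, but differed from capillary-like cells by only 0.78 (0.64 to 0.92). *Sox17*, an arterial transcription factor, was at 166 CPM and slightly below the 210 of capillary-like cells (-0.34, -0.59 to -0.09), though above aerocyte-like (64.5) and venous-like (57.2) cells.

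The Notch ligand *Dll4* was at 264 CPM in arterial-like cells (233 to 299), 127 in capillary-like, 130 in aerocyte-like and 4.61 in venous-like cells. The Notch target *Hey1* was at 245, 105, 31.2 and 12.0 CPM, and *Nrarp*, a target that feeds back on the receptor complex, at 77.3, 23.3, 13.5 and 20.3. These 3 genes were highest in the arterial-like cells. *Hey2* had 18 UMIs in 16 cells (18.8 CPM, 11.1 to 29.7) and 1.28 CPM in capillary-like cells, with too few UMIs to be counted. The receptor *Notch1* was at 435 CPM against 258 in capillary-like cells (log2 ratio 0.75, 0.59 to 0.91), and *Notch4* at 170 against 155. The ligands *Jag1* (56.4 against 53.8 CPM) and *Jag2* (55.4 against 51.7) were within counting error of capillary-like cells, and the target *Hes1* was at 133 against 167 CPM. Of the 22 genes in the Notch list, 19 could be compared with capillary-like cells, and the 3 higher were *Dll4*, *Hey1* and *Nrarp*, with 0 lower and a median of 0.10. Against aerocyte-like cells 6 of 17 were higher (median 0.48), and against venous-like cells 6 of 17 (median 0.22), with 0 lower in both.

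**Figure D1:**
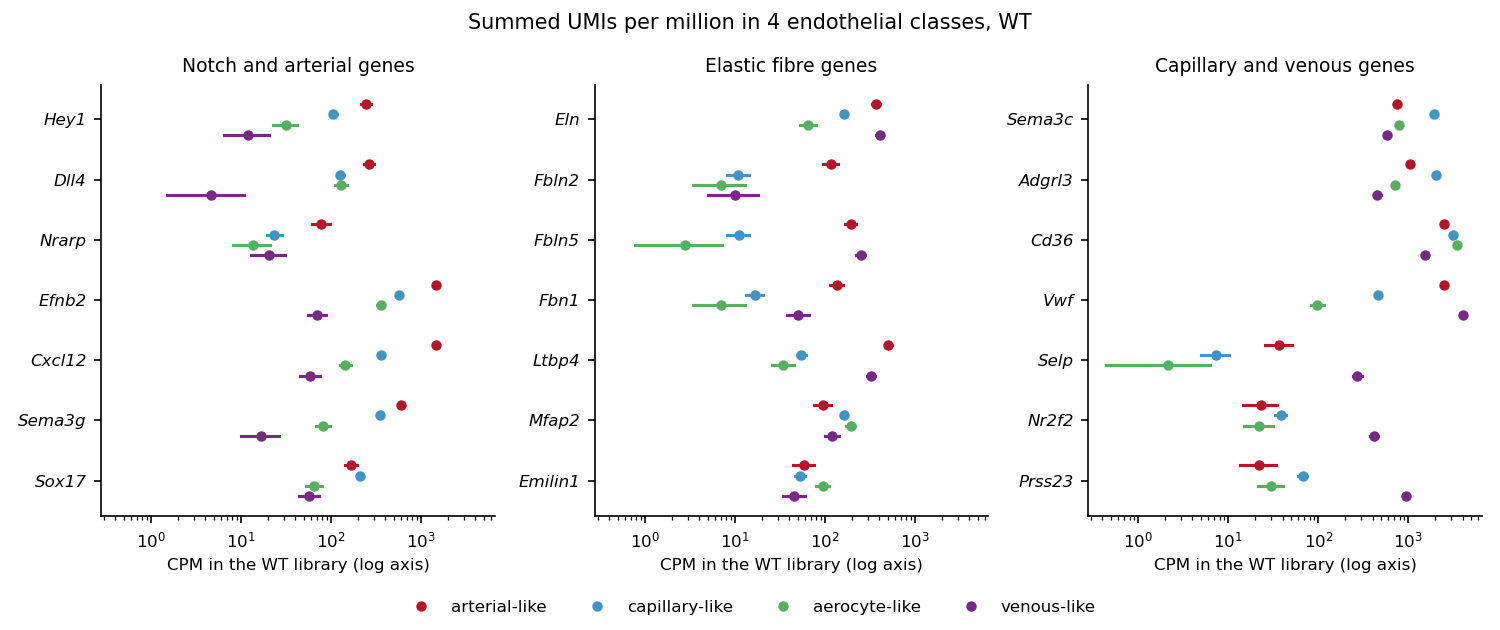
Level of 21 genes in the 4 endothelial classes of the WT library, as CPM on a log axis; points are the summed level of a class and lines the exact Poisson 95% interval. *Efnb2*, *Cxcl12*, *Dll4* and *Hey1* sit highest in arterial-like cells (red), while *Eln* and *Fbln5* sit as high or higher in venous-like cells (purple).

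Among the 17 genes of the arterial list with enough UMIs, *Mecom*, a zinc finger transcription factor, had the largest ratio over capillary-like cells. It was at 670 CPM against 58.1 (log2 3.53, 3.32 to 3.74). Venous-like cells stood between at 290 CPM. *Mecom* is also used by lung epithelium, where it was at 877 CPM, and the part of epithelial RNA in this level was not tested. *Edn1*, the vasoconstrictor endothelin, was at 481 CPM (438 to 527) against 180 in capillary-like, 40.4 in aerocyte-like and 92.2 in venous-like cells. *Unc5b*, a netrin receptor of arterial and tip cells, was at 55.4 CPM against 12.6 in capillary-like cells, but aerocyte-like cells were at 77.9. The genes against the direction were *Nrp1* (795 CPM) and *Clu* (224 CPM), both lower than in aerocyte-like cells, at 1632 and 551 CPM.

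Of 13 elastic fibre genes that could be compared with capillary-like cells, 5 were higher and 1 lower, with a median of 0.82, and of 10 against aerocyte-like cells 7 were higher and 1 lower (median 2.56). Several genes reached the minimum of UMIs against aerocyte-like cells only through the arterial-like cells. The count and median against aerocyte-like cells thus partly follow from the filter and are only a description. *Fbln5*, a fibulin that ties elastin to microfibrils, was at 193 CPM (166 to 223) against 11.1 in capillary-like and 2.83 in aerocyte-like cells. *Ltbp4*, which binds latent TGF-beta and helps elastin assembly, was at 510 CPM against 55.1 and 34.7, and the fibrillin *Fbn1* at 136 against 16.7 and 7.09. *Eln*, elastin itself, was at 370 CPM against 162 and 65.9, and *Fbln2* at 117 against 10.9 and 7.09. This set was shared with venous-like cells, where *Eln* was at 406, *Fbln5* at 252 and *Ltbp4* at 330 CPM. Only *Fbln2* (10.1 CPM in venous-like cells) and *Fbn1* (50.7 CPM) were higher against venous-like cells, 2 of 10 genes, with 0 lower and a median of 0.14. *Mgp*, an inhibitor of calcification and of BMP, was at 1755 CPM against 897, 708 and 974 in the 3 other classes. The microfibril gene *Mfap4* (24.0 against 52.8 CPM) was the 1 lower than in capillary-like cells, but it changed sign under 2 other cell selections.

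Of the basement membrane genes, 2 of 12 were higher and 1 lower against capillary-like cells (median 0.13), 2 of 9 and 0 against aerocyte-like cells (median -0.35), and 0 and 2 of 12 against venous-like cells (median 0.31). *Hspg2*, the proteoglycan perlecan, was at 34.5 CPM against 12.2 and *Col18a1* at 33.4 against 10.7, while *Col4a1*, a main chain of collagen IV, was at 1017 against 1329.

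In the TGF-beta and BMP list, 2 of 17 genes were higher than in capillary-like cells and 0 lower, with a median of 0.46. The inhibitory SMADs were both above capillary-like cells, *Smad6* at 891 against 394 CPM (log2 1.18, 1.06 to 1.29) and *Smad7* at 517 against 313 (0.72, 0.57 to 0.87). *Bmp4* was at 100 CPM against 38.7, 14.9 in aerocyte-like and 124 in venous-like cells. The receptor *Bmpr2*, whose loss underlies heritable pulmonary arterial hypertension, was at 2598 CPM against 2496, a log2 ratio of 0.06 (-0.01 to 0.12). Against aerocyte-like cells 3 of 15 genes were higher and 0 lower (median 0.40), and against venous-like cells 2 of 16 higher and 1 lower (median 0.34).

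In the VEGF and angiopoietin list, 1 of 12 genes was higher and 2 lower against capillary-like cells (median -0.02). The higher one was *Esm1*, a VEGF-induced proteoglycan of tip cells, at 145 CPM (122 to 172) against 32.7, 7.09 and 0.922, found in 51 of the 292 cells. *Vegfa* was at 546 CPM against 336, 104 and 88.5. The lymphatic growth factor *Vegfc* went the other way, at 67.9 CPM against 168 in capillary-like and 754 in venous-like cells. The receptor *Kdr* was at 276 CPM, near capillary-like (313) and venous-like (283) cells and far below aerocyte-like cells (2140). Against aerocyte-like cells 4 of 9 genes were higher and 3 lower (median 0.60), and against venous-like cells 3 of 10 and 2 (median 0.22).

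Of 15 genes of flow sensing and vessel tone, 2 were higher and 1 lower against capillary-like cells (median 0.01). *Klf2*, a shear-induced transcription factor, was at 536 CPM against 515, whereas its relative *Klf4* was at 182 against 330 (log2 -0.86, -1.09 to -0.63) and was lower than in aerocyte-like (559) and venous-like (449) cells. The anticoagulant *Thbd* was at 671 CPM against 1176. *Nos3*, endothelial nitric oxide synthase, was at 65.8 CPM against 33.1, just short of 2-fold, and *Kcnj2*, an inward rectifier potassium channel, at 36.6 against 15.6. Outside the 2 connexins of the rule, *Gja1* had 0 UMIs in arterial-like cells and 66 in capillary-like cells (14.1 CPM), where it was at least 4.50-fold higher.

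*Vwf*, the clotting factor stored by large-vessel endothelium, was at 2467 CPM (2369 to 2569) in arterial-like cells. Capillary-like cells were at 463, aerocyte-like at 97.8 and venous-like cells at 4042 CPM, so arterial-like cells lay between capillary and vein. *Selp*, the adhesion molecule P-selectin, had the same order at 36.6, 7.27, 2.13 and 271 CPM. The venous genes *Nr2f2* (23.0 CPM against 417 in venous-like cells) and *Prss23* (21.9 against 939) were near the capillary level. Over the venous list, 7 of 9 genes outside the rules were lower than in venous-like cells (median -3.67), and 8 of 9 aerocyte genes were lower than in aerocyte-like cells (median -3.42). Both results partly follow from the rules, which keep these classes apart by single genes of the same kind. They also partly follow from the minimum of UMIs, which genes such as *Nr2f2* and *Prss23* reached through the other class.

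Most capillary genes differed by less than 2-fold between arterial-like and capillary-like cells. Of 10 capillary genes outside the rules only *Sema3c* was lower, at 750 CPM against 1906 (log2 -1.35, -1.46 to -1.24), with a list median of -0.40. Of all genes 3.39% were lower, with a median of -0.01. *Adgrl3*, an adhesion receptor, was at 1049 against 2031 CPM, *Cd36*, a fatty acid transporter, at 2484 against 3118, and *Lpl*, lipoprotein lipase, at 524 against 388. *Gpihbp1*, which anchors that lipase, was at 841 CPM and found in 212 of 292 arterial-like cells, and *Plvap*, a protein of fenestral diaphragms, was at 1118 and found in 252. These 2 belong to the rule of the capillary-like class, where they were at 993 and 1093 CPM. Against aerocyte-like and venous-like cells 3 of the 10 genes were higher and 0 lower in each case, with medians of 0.27 and 0.54. Of all genes 6.31% and 4.58% were higher in these comparisons.

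**Figure D2:**
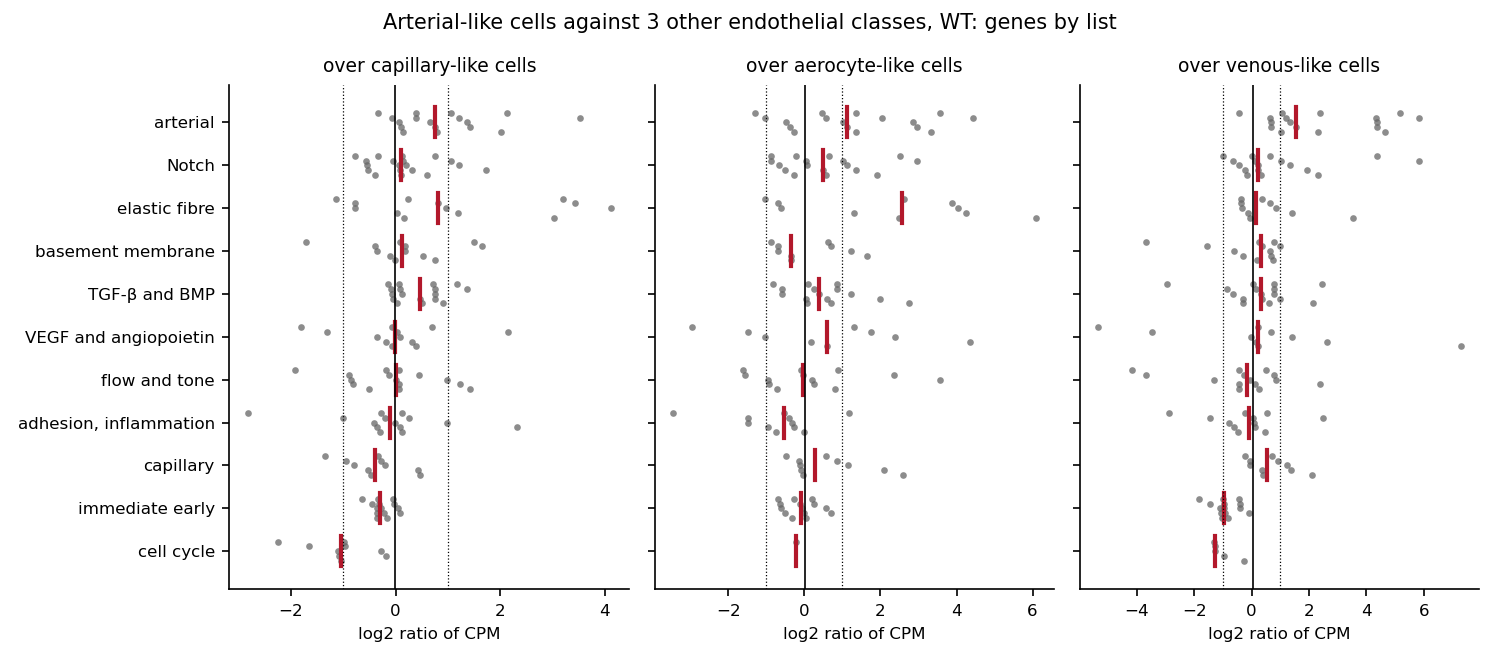
Log2 ratio of CPM of arterial-like cells over capillary-like, aerocyte-like and venous-like cells of the WT library for the genes of 11 lists; each grey point is a gene with at least 50 UMIs, the red bar is the list median, the solid line the median of all genes and dotted lines 1 log2 unit. The arterial and elastic fibre lists lie to the right against capillary-like cells (medians 0.75 and 0.82), and the elastic fibre median falls to 0.14 against venous-like cells.

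Outside the lists, the 10 genes with the highest ratio over capillary-like cells were examined for how many cells carried them. *Jchain* headed the order, but all of its 141 UMIs came from 1 cell. *Olfm2*, an olfactomedin, was at 155 CPM (131 to 182) in 72 cells against 1.92 CPM (log2 6.33, 5.37 to 7.49), and *Rbp7*, a retinol-binding protein, at 98.2 CPM in 29 cells against 1.28. *Esr2*, an oestrogen receptor, was at 113 CPM in 65 cells against 1.71. *Olfm2* and *Esr2* had 0 UMIs in aerocyte-like and venous-like cells. *Atp13a3*, a polyamine transporter, was at 869 CPM (811 to 931) against 29.9, 17.7 and 22.1 in the 3 other classes, and was found in 126 of the 292 cells with up to 44 UMIs. *Thsd7a*, at 283 CPM in 90 cells against 11.1, and *Cdh13*, T-cadherin, at 252 CPM in 46 cells against 6.41, also led the order over aerocyte-like cells, with log2 ratios of 7.64 and 6.89. In venous-like cells *Thsd7a* was at 49.8 CPM and *Cdh13* at 118 CPM. *Stk32a* was at 99.3 CPM in 58 cells. *Cytl1* (13 cells) and *Efna5* (20 cells) rested on few cells, and *Cytl1* was at 187 CPM in venous-like cells. Each of the 10 was thus found in under 50% of the arterial-like cells.

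*Slc45a4*, at 275 CPM in 116 cells, was among the 5 highest over both aerocyte-like and venous-like cells (log2 6.60 and 7.22). *Esm1*, *Ror1* and *Sfrp1* were the others over venous-like cells besides *Jchain*. Among the lowest genes, *Fabp4*, a fatty acid binding protein, was at 4.18 CPM against 49.8 in capillary-like cells, and *Pcdh7* had 2 UMIs against 28.4 CPM there and 362 in venous-like cells. *Rgs6* was at 3.14 CPM against 913 in aerocyte-like cells, and *Ackr1*, an atypical chemokine receptor of venules, had 1 UMI against 122 CPM in venous-like cells. The last 2 genes were thus each high in 1 other class only.

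The rule asks for 2 arterial genes, so cells just inside and just outside its threshold were set side by side. Of 5932 WT endothelial cells free of the 6 excluded genes, 4177 held 0 of the arterial genes, 1463 held 1, 225 held 2, 60 held 3 and 7 held 4. Median depth was 1282 UMIs with 0 markers, 2264 with 1, 2555 with 2 and 3376 with 3 or 4, so the next shares come from cells thinned to 1000 UMIs. *Efnb2* was found in 34.7% of cells with 0 markers, 46.6% with 1, 70.7% with 2 and 77.6% with 3 or 4. *Cxcl12* went from 23.6% to 35.5%, 57.7% and 61.2%, and *Hey1* from 9.16% to 12.0%, 20.5% and 17.9%. Unthinned, *Efnb2* was at 477, 725, 1401 and 1578 CPM, *Cxcl12* at 329, 575, 1298 and 1871, and *Hey1* at 91.3, 125, 239 and 259. Cells with 1 marker lay between those with 0 and 2. From 2 to 3 or 4 markers the log2 ratio was 0.12 for *Hey1* (-0.31 to 0.53), 0.02 for *Dll4* (-0.40 to 0.42) and 0.17 for *Efnb2* (0.00 to 0.34), while *Cxcl12* was at 0.53 (0.37 to 0.69).

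Of 9 elastic fibre genes, 6 were higher with 3 or 4 markers than with 2 and 0 lower (median log2 ratio 1.46), beside 2.05% higher and 2.91% lower of 3709 genes. Of 17 arterial genes 1 was higher and 0 lower (median 0.24). *Fbln5* was at 14.9, 9.58, 75.3 and 500 CPM with 0, 1, 2 and 3 or 4 markers, and *Fbn1* at 20.03, 18.6, 75.3 and 293. *Ltbp4* went from 62.4 to 84.4, 343 and 943 CPM, *Eln* from 151 to 158, 235 and 722, and *Mecom* from 74.6 to 111, 431 and 1289. From 2 to 3 or 4 markers their log2 ratios were 2.73 (2.26 to 3.22) for *Fbln5*, 1.96 (1.44 to 2.50) for *Fbn1*, 1.46 (1.20 to 1.72) for *Ltbp4*, 1.62 (1.31 to 1.93) for *Eln* and 1.58 (1.35 to 1.81) for *Mecom*. In thinned cells *Fbln5* was found in 6.51% of those with 2 markers and 35.8% of those with 3 or 4, and *Mecom* in 27.9% and 58.2%. *Sfrp1*, a secreted Wnt inhibitor, was at 15.9 CPM with 2 markers and 225 with 3 or 4.

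Capillary genes outside the rules were compared in the same way. From 0 to 1 marker 0 of 10 were higher or lower (median 0.23, beside 0.226% higher and 3.87% lower of all genes). From 1 to 2 markers 0 were higher and 2 of 10 lower (median -0.25, beside 1.43% and 2.73%), and from 2 to 3 or 4 markers 0 were higher and 1 of 9 lower (median -0.47). *Sema3c* was found in 65.5%, 69.9%, 38.1% and 20.9% of thinned cells with 0, 1, 2 and 3 or 4 markers, and *Kit*, a receptor used in the capillary-like rule, in 47.1%, 56.3%, 43.3% and 14.9%. Unthinned, *Sema3c* was at 1658, 1925, 931 and 282 CPM and *Adgrl3* at 1547, 1644, 1190 and 684. *Cd36* differed less, from 91.7% of thinned cells with 1 marker to 85.1% and 71.6%. Other genes of the list did not follow this, as *Lpl* was at 347, 434, 591 and 349 CPM and *Ptprb*, a phosphatase of endothelial junctions, at 2225, 2731, 3570 and 3983.

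**Figure D3:**
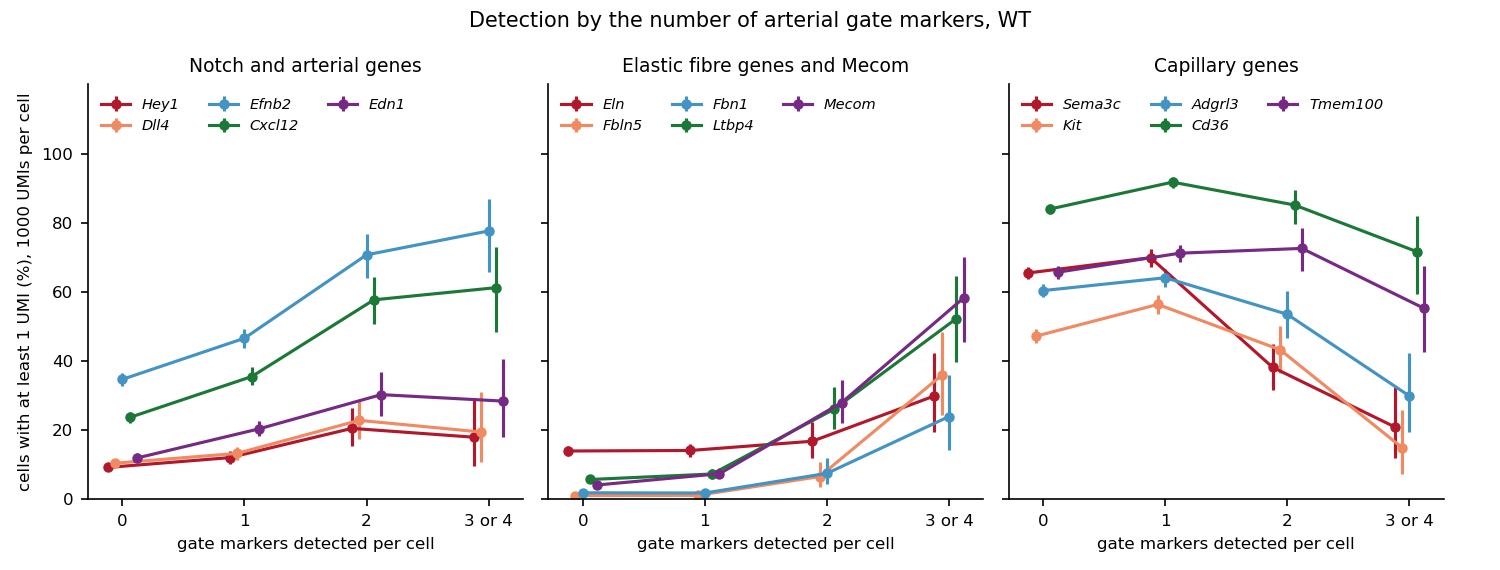
Share of WT endothelial cells with at least 1 UMI of a gene, each cell thinned to 1000 UMIs, by the number of arterial rule genes detected in the cell; points are shares and bars the exact binomial 95% interval. The shares for *Efnb2* and *Cxcl12* change little between 2 and 3 or 4 markers, *Fbln5*, *Ltbp4* and *Mecom* are higher again with 3 or 4, and *Sema3c* and *Kit* lie at 20.9% and 14.9% there.

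All 67 cells with 3 or 4 markers held *Gja5*, so cells with and without it were compared at 2 markers only. The 163 with *Gja5* and the 62 without it had median depths of 2556 and 2494 UMIs. *Efnb2* was at 1439 and 1299 CPM, *Cxcl12* at 1288 and 1326 and *Hey1* at 241 and 233. *Fbln5* was at 73.1 and 81.2 CPM and *Fbn1* at 77.1 and 70.4, all with overlapping intervals. *Mecom* was at 499.9 CPM with *Gja5* (440 to 565) and 244 without it (178 to 326), *Sema3c* at 850 (771 to 934) and 1153 (1003 to 1319), and *Eln* at 194 (157 to 236) and 346 (267 to 442). Of 14 arterial genes with enough UMIs 1, *Mecom*, was higher with *Gja5* and 0 lower (median log2 ratio 0.04), beside 2.15% higher and 0.574% lower of 2787 genes. Of 7 elastic fibre genes (median -0.15), 8 Notch genes (median 0.04) and 9 capillary genes (median -0.14), 0 were higher or lower.

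The genes of the whole transcriptome were then used through nearest neighbours. For each endothelial cell of the WT library with at least 1000 UMIs, thinned to that depth, the 20 nearest of 5995 such cells were found in 20 principal components of 2000 variable genes, with the genes of the rules left out. Arterial-like cells made up 4.70% of the 5995 cells. Around an arterial-like cell they made up 28.8% (n = 282 cells), against 2.53% around a capillary-like, 0.297% around an aerocyte-like and 0.634% around a venous-like cell. Around cells with 3 or 4 markers the share was 46.7%, with 2 markers 23.3%, with 1 marker 5.48% and with 0 markers 2.35%. At least 5 of 20 neighbours were arterial-like for 53 of 67 cells with 3 or 4 markers (79.1%) and for 86 of 215 cells with 2 (40%). Some cells found by the rule thus lay together and others lay among other endothelial cells. Capillary-like cells made up 22.1% and venous-like cells 1.17% of the neighbours of arterial-like cells, against 31.5% and 4.60% of the 5995 cells. Aerocyte-like cells, by contrast, had 68.5% and venous-like cells 53.8% of their neighbours in their own class.

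Within the 282 arterial-like cells, the summed UMIs of the elastic fibre list per 1000 UMIs ranged from 0 to 25 in cells with 2 markers (median 2) and from 0 to 38 in those with 3 or 4 (median 3). Those of the capillary list had medians of 14 and 9, and those of the arterial list 7 and 8. Across cells the elastic fibre and capillary sums had a Pearson correlation of -0.43 and a Spearman correlation of -0.43, while the arterial sum had 0.01 with the capillary sum by both and 0.10 and 0.17 with the elastic fibre sum. These describe cells of 1 library at 1 fixed depth, where the sums share 1 total, and are not a test. *Mgp* made up 1755 of the 3519 CPM of the elastic fibre list in WT arterial-like cells, with up to 154 UMIs in a cell before thinning. Its part in the elastic fibre sums and their correlations was not tested.

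**Figure D4:**
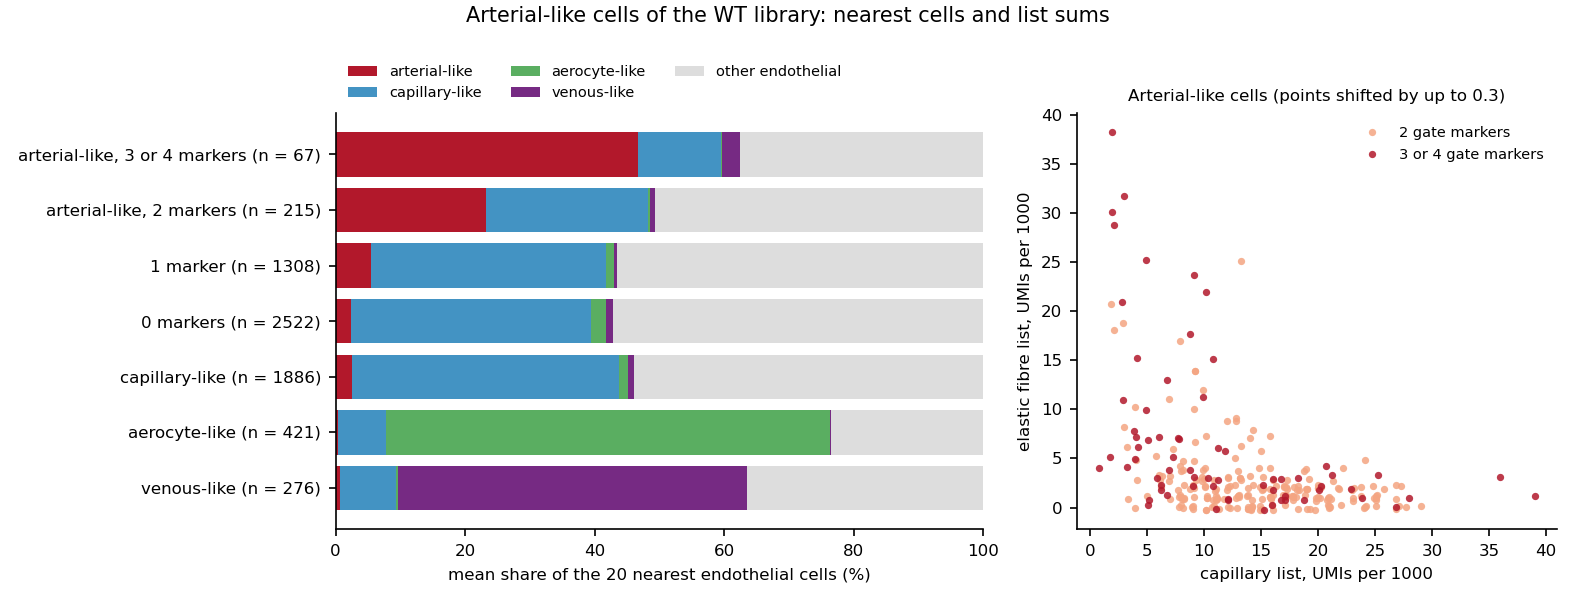
Left, mean share of the 20 nearest endothelial cells that fall in each class, for WT cells grouped by the arterial rule genes they hold or by class; right, summed UMIs of the elastic fibre list against those of the capillary list in each of 282 arterial-like cells thinned to 1000 UMIs. The arterial share (red) drops from 46.7% with 3 or 4 markers to 5.48% with 1, and the elastic fibre and capillary sums have a Pearson correlation of -0.43. *Mgp* is the most abundant gene of the elastic fibre list.

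In the KO library 13 cells met the rule. *Efnb2* was at 1754 CPM (1362 to 2223, 68 UMIs in 12 cells) against 284 in the 112 KO capillary-like cells, *Cxcl12* at 1367 against 335, and *Vwf* at 1522 against 360. *Mgp* was at 1186 CPM against 335. These 4 genes had 46 to 68 UMIs in the KO arterial-like cells and were above the capillary level in both libraries. *Fbn1* (7 UMIs in 3 cells) and *Atp13a3* (24 UMIs in 3 cells) had too few UMIs to be compared. Of 9 genes of the arterial list that could be compared with KO capillary-like cells, 4 were higher and 0 lower (median 0.89), beside 62 of 1052 genes (5.89%) higher and 103 (9.79%) lower overall.

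Between the libraries, 219 of 3829 genes (5.72%) were higher in KO than in WT arterial-like cells and 595 (15.5%) lower. Scaled by TMM factors, which trim extreme genes, every ratio shifted by -0.30 and 76 genes were higher and 843 lower. With a minimum of 20 UMIs in place of 50, 721 were higher and 595 lower. Below 50 UMIs a gene with 1 UMI in KO could not be 2-fold lower, and 0 UMIs were read at the floor. Such genes could only add to the higher number, so this setting does not decide the balance. At the minimum of 50, a gene had a median of 4 UMIs in KO and 99 in WT. Of these genes 202 had 0 UMIs in KO, so most of these ratios rest on a few molecules. For *Efnb2* the KO/WT log2 ratio was 0.27 (-0.10 to 0.63), for *Cxcl12* -0.09 (-0.52 to 0.30) and for *Hey1* -1.25 (-3.13 to 0.13), so their intervals spanned 0. With the TMM shift *Efnb2* was at -0.03, *Cxcl12* at -0.40 (-0.82 to -0.00) and *Hey1* at -1.55 (-3.44 to -0.17). *Mecom* was at 232 CPM in KO (9 UMIs) against 670 in WT (-1.53, -2.66 to -0.60), *Edn1* at 181 (7 UMIs) against 481 (-1.41, -2.74 to -0.36), *Eln* at 103 (4 UMIs) against 370 and *Vwf* at 1522 against 2467 (-0.70, -1.10 to -0.32). *Plvap* was at 1728 CPM against 1118 (0.63, 0.25 to 0.98, and 0.32, -0.05 to 0.68, with the TMM shift). Each of these values compares 1 library with 1 library. Genes passed the minimum of UMIs mostly through the WT cells, so no count over a list is given for KO against WT. In the KO library 2 of 13 cells (15.4%, 1.92 to 45.4) held 3 markers, against 67 of 292 (22.9%, 18.2 to 28.2) holding 3 or 4 in WT.

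The immediate early list holds genes that rise within minutes of stress or tissue dissociation. It summed to 3102 CPM in WT and 2089 in KO arterial-like cells, to 3694 and 4352 in capillary-like, 3592 and 3366 in aerocyte-like, and 5512 and 2809 in venous-like cells. The sum was thus smaller in KO in arterial-like and venous-like cells and larger in capillary-like cells. In aerocyte-like cells the intervals overlapped (3493 to 3692 in WT and 3072 to 3680 in KO). Over all cells of the endothelial gate the sum was 3612 CPM in WT and 4065 in KO, and in immune cells 4172 and 4470. Within the KO library 0 of 11 of these genes were higher and 5 lower in arterial-like than in capillary-like cells (median -0.88). Of all 1052 genes 5.89% were higher and 9.79% lower. The list had 81 UMIs in KO arterial-like and 1196 in KO capillary-like cells. Genes thus passed the minimum of UMIs mostly through the capillary-like cells, and the count is only a description. In WT, arterial-like cells had 0 of 14 of these genes higher or lower against capillary-like and against aerocyte-like cells (medians -0.30 and -0.09). Against venous-like cells 6 of 14 were lower (median -0.97), beside 4.38% lower of all genes.

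The 5 highest genes of KO over WT were *Sftpc* (2012 against 228 CPM, log2 3.14), *Hdac9*, *Scgb1a1* (1599 against 254 CPM, 2.65), *Cd55* and *Lxn*. *Sftpc* encodes surfactant protein C of alveolar type 2 cells and *Scgb1a1* the club cell secretory protein, and both were found in all 13 KO cells. The same genes were at 18623 and 10880 CPM in KO capillary-like cells and at 1571 and 288 in WT capillary-like cells. *Hdac9* had 18 UMIs in 3 KO cells, *Cd55* 15 UMIs in 2 and *Lxn* 10 UMIs in 6. The 5 lowest, *Cd74*, *Ubl3*, *Mef2c*, *Rhob* and *Bgn*, each had 1 UMI in the KO cells.

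**Figure D5:**
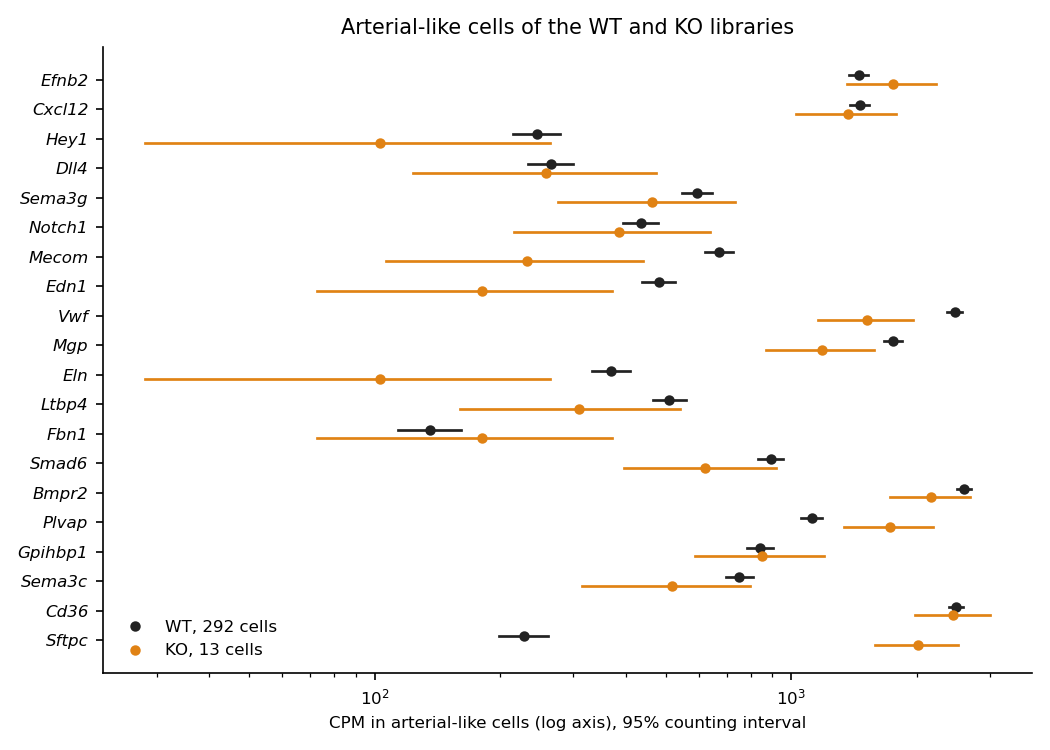
Level of 20 genes in the arterial-like cells of the WT library (292 cells, black) and the KO library (13 cells, orange), as CPM on a log axis with the exact Poisson 95% interval. Intervals overlap for *Efnb2*, *Cxcl12*, *Dll4* and *Bmpr2*, while *Mecom*, *Edn1*, *Vwf* and *Eln* lie to the left and *Sftpc* to the right in KO.

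RNA of other cell types was present, and in the KO cells *Sftpc* was above *Efnb2*, the most abundant gene of the arterial list there. The 8 epithelial genes summed to 554 CPM in WT arterial-like cells, with all 8 detected and *Scgb1a1* the most abundant at 254 CPM, and to 3894 CPM in KO, with 5 detected and *Sftpc* the most abundant at 2012 CPM. In WT capillary-like cells the sum was 2168 CPM, and 4 of 8 of these genes were lower in arterial-like cells (median -1.55). The 7 immune genes summed to 781 CPM in WT and 464 in KO, led by *Lyz2* at 577 and 413 CPM, against 13387 CPM in WT immune cells. Genes of smooth muscle and pericytes, cells that wrap arteries and capillaries, summed to 85.7 CPM with 7 of 8 detected in WT and to 0 UMIs in KO. *Tagln* led them at 37.6 CPM and *Acta2* was at 29.3, while the contractile gene *Cnn1* had 0 UMIs. Capillary-like cells were at 63.9 CPM for the list, 19.9 for *Tagln* and 10.9 for *Acta2*, and of the 3 genes with enough UMIs 1 was higher in arterial-like cells and 1 lower (median 0.92). Smooth muscle also makes elastic fibres, and the part of its RNA in the elastic fibre ratios was not tested. Fibroblast genes summed to 60.6 CPM in WT, led by *Col3a1* at 25.1. The lymphatic list summed to 1022 CPM in WT, of which *Lyve1* made up 936, and *Lyve1* was also at 618 CPM in capillary-like and 1234 in venous-like cells. The part of free RNA or attached cells in the ratios above was not tested.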

How the data were processed

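RNA of lung cells was measured in a *Pclaf* WT and a *Pclaf* KO library with 10x Genomics 3' v3.1 chemistry. The deposited values are raw UMI counts of each gene in each barcode, which the authors had not normalized, made per the submitters' notes with Cell Ranger 3.1.0 and STAR on GRCm38 (mm10), whereas the matrix headers name version 5.0.0. The matrices held 30669 WT and 17172 KO barcodes with 98171818 and 111267567 UMIs over 31053 genes, and 0 columns of values were left unmapped. UMIs of the 35 repeated symbols were summed, which left 31017 symbols.

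Barcodes with more than 200 and fewer than 5000 genes and under 20% mitochondrial UMIs were kept. The study's methods give 200 and 5000 as limits on RNAs detected, which were read as genes here, and the study's minimum of 3 cells per gene was not applied. Immune cells used as reference held at least 2 UMIs of *Ptprc* and epithelial cells at least 2 of *Epcam*, with 0 UMIs of *Cdh5*, *Col1a2* and the other gene. The members, lists and comparisons were chosen with earlier results of these data known. UMIs were summed per class and given as CPM. Log2 ratios had the exact conditional 95% interval of 2 Poisson counts and shares the exact Clopper-Pearson interval. A sum of 0 was set at 3 counts as a bound, and no ratio was taken where that bound pointed the wrong way. No p-value was computed. The named genes are those of the lists that are described, the 10 highest and 10 lowest ratios over capillary-like cells, and the 5 highest and 5 lowest of each other comparison, with at least 50 UMIs. Genes of the rules, mitochondrial and ribosomal protein genes and unnamed gene models were left out of these orders. Sequences were not used here. Gene positions are from the GENCODE vM21 annotation of GRCm38.

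Analyses used Python 3.11.15, numpy 2.4.6, scipy 1.17.1, pandas 2.3.3, scikit-learn 1.9.0, scanpy 1.11.5, matplotlib 3.10.9, and R 4.3.3 with edgeR 4.0.16 for TMM factors alone, and the ratios were tested on simulated data. Doublets were not removed in the main values. Scrublet in scanpy, with an expected rate of 0.8% per 1000 cells, called 2342 of the kept WT cells (7.76%) and 422 of the KO cells (2.70%), among them 8 WT and 0 KO arterial-like cells. Alternatives were 3 of 4 markers, other limits on genes and mitochondrial UMIs, excluded genes at up to 1 UMI, no Scrublet doublets, cells thinned to 1000 UMIs, TMM factors, totals that leave out mitochondrial and ribosomal protein genes, other minimums of UMIs and means over cells. After seeing the data, cells with *Gja5*, cells without the *Jchain* cell and barcodes of 1 library only were added.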

Additional observations from a re-analysis of the deposited data

How the results depend on the processing

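The number and share of arterial-like cells depended on the rule. With 3 of 4 markers there were 67 WT cells (0.830% of endothelial cells) and 2 KO cells (0.452%), and with each cell thinned to 1000 UMIs 109 (1.65%) and 5 (1.37%). The WT share was 4.12% at a mitochondrial limit of 10% and 4.35% with the higher minimum of genes per cell, WT cells were 367 with the excluded genes at up to 1 UMI, and 230 (2.85%) with *Gja5* required. Numbers of genes past 2-fold that moved by more than 1.5 times are given next. With 3 of 4 markers, 410 were higher and 867 lower against capillary-like cells, 666 lower against aerocyte-like cells, and 95 higher and 208 lower in KO than in WT. With thinning, 742 were lower against capillary-like cells, 142 higher against aerocyte-like cells, 77 higher and 113 lower against venous-like cells, and 19 higher and 53 lower in KO. With TMM factors 76 were higher in KO. With at least 20 UMIs the higher and lower numbers were 395 and 624 over capillary-like, 716 and 705 over aerocyte-like, 502 and 554 over venous-like cells, and 721 and 595 for KO over WT. With at least 1 UMI they were 1388 and 852, 1605 and 1324, and 1253 and 1284.

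*Mfap4* over capillary-like cells changed sign, from -1.13 to 0.072 with the excluded genes at up to 1 UMI and 0.50 with thinning, and the cause was not tested. Of the other ratios of named genes and lists under the alternatives, 1371 of those over capillary-like cells stayed within the main counting interval and 111 moved beyond it, as did 1139 and 86 over aerocyte-like, 1141 and 79 over venous-like cells, and 42 and 3 for KO over WT. The values that moved include numbers of genes in lists and 268 log2 values, of which 30 changed sign, each from under 2-fold. No paired analysis was possible because each genotype has 1 library. In the KO cells the small number of cells limits precision, since 3 counts in 13 cells are 77.4 CPM.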

Other observations

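Cell cycle genes had few UMIs in the arterial-like cells. In WT, *Mki67* had 22 UMIs in 4 cells (23.0 CPM, 14.4 to 34.8) and *Top2a* 24 UMIs in 5 cells (25.1 CPM), 19 of each in 1 cell, against 45.3 and 53.4 CPM in capillary-like cells. Of 9 cell cycle genes that could be compared, 0 were higher and 5 lower (median -1.04). Of all genes 2.35% were higher and 3.39% lower in this comparison. The count is only a description, since *Mki67* and *Top2a* reached the minimum of UMIs mostly through the capillary-like cells. In the KO cells both had 0 UMIs, while the list had 10 UMIs over 6 genes (258 CPM, 124 to 474, against 156 in WT). Targets of p53, which bleomycin damage can induce, had 0 of 10 genes higher or lower than in capillary-like cells (median 0.06). *Cdkn1a*, the cell cycle inhibitor p21, was at 140 CPM in arterial-like and 162 in capillary-like cells, and at 606 in aerocyte-like cells. Of 14 genes of adhesion and inflammation, 1 was higher and 2 lower than in capillary-like cells (median -0.11). The p53 and adhesion counts also stand beside 2.35% higher and 3.39% lower of all genes. Haemoglobin and platelet genes summed to 214 CPM, against 691 in capillary-like cells. The neutrophil gene *S100a8* had 73 UMIs in 11 WT arterial-like cells, 55 of them in 1 cell.

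The study's methods state male mice. *Xist*, which is transcribed from the inactive X chromosome of females, was at 188 CPM in WT and 619 in KO arterial-like cells, and the Y-linked *Ddx3y* at 82.6 and 77.4 CPM.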
